A study of Homo sapiens with 4 samples.

Results

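The 9 interferon-stimulated genes ISG15, IFI6, IFI27, IFIT1, IFIT2, IFIT3, MX1, OAS1 and ISG20 were followed across single cells of the human lines Ishikawa, an endometrial adenocarcinoma, and T-47D, a ductal carcinoma of the mammary gland. They are 9 of 33540 features in the Ishikawa matrix, which also holds the reporters GFP and tdTomato, and 9 of 33538 in the T-47D matrix, and each was found by its symbol. They were selected on values of these libraries that were already known, their levels, their spread between cells and their correlations, so these are described below and not tested. Both lines were kept in hormone-depleted medium and then given 10 nM 17β-estradiol (E2), the main estrogen, for 2, 4 or 8 h, or the DMSO vehicle as 0 h. The labels name no interferon or virus among the treatments. The cells of the 4 time points of a line were tagged with MULTI-seq membrane barcodes, mixed and run as 1 droplet library, so each line and time point is 1 culture, line and library cannot be told apart, and no value has a replicate. After the limits on UMIs (unique molecular identifiers, which mark single captured transcripts), genes and mitochondrial share, 4613 of 9077 Ishikawa barcodes called to 1 time point remained, with 776, 1480, 892 and 1465 cells at 0, 2, 4 and 8 h. All 4626 called T-47D barcodes remained, with 1525, 1207, 1341 and 553 cells. The 8 pools held between 12927799 and 33175309 UMIs.

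Interferons are secreted proteins that cells release on sensing viral nucleic acid. Type I and type III interferons bind their receptors on the same and neighbouring cells, and the kinases JAK1 and TYK2 then activate factors that include STAT2, which joins IRF9 and binds interferon-stimulated response elements in promoters. Genes of the IFIT family, ISG15 and a few others can also be switched on by IRF3 within the cell that senses the nucleic acid. ISG15 encodes a ubiquitin-like protein that is joined to other proteins. IFIT1, IFIT2 and IFIT3 encode RNA-binding or adaptor proteins that restrain viral translation, MX1 a dynamin-like GTPase, OAS1 a synthetase that activates RNase L, and ISG20 an exonuclease. IFI6 and IFI27 encode small hydrophobic membrane proteins of one family.

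In the RefSeq annotation of GRCh38.p14 the 3 IFIT genes lie side by side on chromosome 10, with IFIT2 at 89302046 to 89309271, IFIT3 at 89327997 to 89340968 and IFIT1 at 89392623 to 89406487. ISG15 lies at 1013497 to 1014540 and IFI6 at 27666064 to 27672192 of chromosome 1, IFI27 at 94105894 to 94116690 of chromosome 14, MX1 at 41420558 to 41459214 of chromosome 21, OAS1 at 112906962 to 112933219 of chromosome 12 and ISG20 at 88635632 to 88656483 of chromosome 15. The labels name hg38 as the build of the study. Promoter windows from 250 bases before to 50 bases after a transcript start were found for 8 of the 9 genes, and none was found for IFIT2. They were searched on both strands for GAAANNGAAA, the core of the interferon-stimulated response element, with overlapping matches counted. Of the 12 windows of these genes 10 held it, against 3.57% of all 35116 RefSeq windows of the same length, and 7 of the 8 genes had it in at least 1 window. OAS1 had none of these exact letters in its window, and MX1 had them in 2 of 3 windows. The sequences below are the 250 bases before the start, 5′ to 3′, of 5 of the 7 genes with a match, with each match in capitals. MX1 and ISG20, which also had a match, and OAS1 are not shown. IFI27 and IFIT3 have 2 windows each and the first is shown. A match is a description of the sequence and not a bound site.
IFIT1, chr10:89392373-89392622, plus strand: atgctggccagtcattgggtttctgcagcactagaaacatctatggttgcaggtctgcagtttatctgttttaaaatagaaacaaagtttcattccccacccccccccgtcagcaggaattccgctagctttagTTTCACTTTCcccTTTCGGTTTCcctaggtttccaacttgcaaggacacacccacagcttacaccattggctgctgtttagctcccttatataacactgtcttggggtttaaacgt
IFIT3, chr10:89327747-89327996, plus strand: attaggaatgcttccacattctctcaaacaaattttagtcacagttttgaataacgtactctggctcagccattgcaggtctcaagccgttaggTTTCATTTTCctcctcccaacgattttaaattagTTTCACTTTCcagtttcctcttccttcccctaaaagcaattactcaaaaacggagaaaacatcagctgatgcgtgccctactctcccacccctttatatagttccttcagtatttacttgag
ISG15, chr1:1013247-1013496, plus strand: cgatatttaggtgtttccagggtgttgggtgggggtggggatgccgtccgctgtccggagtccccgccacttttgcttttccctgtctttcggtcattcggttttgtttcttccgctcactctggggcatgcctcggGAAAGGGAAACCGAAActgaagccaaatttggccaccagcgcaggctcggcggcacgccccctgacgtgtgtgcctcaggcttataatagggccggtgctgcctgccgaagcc
IFI6, chr1:27672193-27672442, minus strand: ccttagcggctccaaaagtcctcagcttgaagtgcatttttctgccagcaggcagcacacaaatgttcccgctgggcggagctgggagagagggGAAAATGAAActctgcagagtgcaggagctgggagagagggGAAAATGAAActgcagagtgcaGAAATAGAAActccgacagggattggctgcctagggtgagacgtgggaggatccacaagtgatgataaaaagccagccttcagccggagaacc
IFI27, chr14:94110486-94110735, plus strand: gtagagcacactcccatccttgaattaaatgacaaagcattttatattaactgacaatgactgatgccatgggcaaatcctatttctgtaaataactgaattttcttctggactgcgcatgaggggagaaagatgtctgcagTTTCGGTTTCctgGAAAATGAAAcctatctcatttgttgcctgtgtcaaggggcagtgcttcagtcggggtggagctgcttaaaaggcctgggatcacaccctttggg
The matches of IFIT1 and IFIT3 were all on the opposite strand, where they read TTTCNNTTTC, those of ISG15 and IFI6 were on the strand shown, and IFI27 had 1 on each. The first match began 116 bases before the start in IFIT1, 156 in IFIT3, 113 in ISG15, 156 in IFI6 and 108 in IFI27.

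The cells carried most markers of their labels, and ANKRD30A in T-47D was near 0. The 5 epithelial markers EPCAM, KRT8, KRT18, KRT19 and CDH1 were present in both lines, with CDH1 the lowest at 61.4 CPM in Ishikawa and 156 CPM in T-47D at 0 h. CPM are UMIs per 1000000 UMIs of the pool, the cells of 1 line and time point together. Of the endometrial markers PAX8, SOX17 and EMX2 were at 126, 52.4 and 108 CPM in Ishikawa and had no UMI in T-47D. Of the breast luminal markers GATA3, FOXA1 and TFF3 were at 518, 119 and 560 CPM in T-47D, whereas ANKRD30A had 2 UMIs there at 0 h. The leukocyte markers CD3D, MS4A1 and NKG7 had no UMI in Ishikawa, and PTPRC, the common leukocyte antigen, had 1 UMI in all Ishikawa cells and at most 3 in any T-47D pool. CD68, the highest of the leukocyte markers, was at 1.5 and 0.452 CPM at 0 h. The plasmacytoid dendritic cell markers LILRA4 and CLEC4C had no UMI in T-47D and 0 and 1 UMI in Ishikawa. Of the fibroblast markers COL1A1 was the highest in Ishikawa at 28.9 CPM and LUM in T-47D at 10.7 CPM, and of the endothelial markers VWF at 1.37 and 0.151 CPM, with no UMI of CDH5 in either line. The estrogen target GREB1 was at 10.4, 31.7, 37.8 and 47.3 CPM in T-47D at 0, 2, 4 and 8 h and at 1.18, 2.48, 3.05 and 3.90 CPM in Ishikawa.

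The 9 genes were of low abundance in both lines, and the order of their levels differed between the lines. In Ishikawa at 0 h ISG15 was highest at 31.2 CPM (95% exact Poisson interval 28.4 to 34.1, 477 UMIs), followed by IFI27 at 14.7 CPM (12.8 to 16.7) and IFIT2 at 11.5 CPM (9.86 to 13.3), whose intervals overlap. IFI6 at 2.55 CPM, IFIT3 at 2.09 CPM, ISG20 at 1.18 CPM and IFIT1 at 0.849 CPM followed, each overlapping the next, then MX1 at 0.392 CPM from 6 UMIs, and OAS1 had no UMI. In T-47D at 0 h IFI6 was highest at 22.2 CPM (20.6 to 23.9, 737 UMIs), followed by ISG15 at 8.77 CPM (7.79 to 9.84) and ISG20 at 5.76 CPM (4.97 to 6.63). IFI27 at 4.16 CPM and MX1 at 3.74 CPM overlapped, as did IFIT1 at 0.965 CPM, OAS1 at 0.452 CPM, IFIT2 at 0.362 CPM and IFIT3 at 0.181 CPM, each with the next. These libraries count the poly(A) end of each transcript, so UMI counts do not grow with transcript length. All intervals cover counting error only, and they are too narrow for genes whose UMIs sit in few cells.

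**Figure D1:**
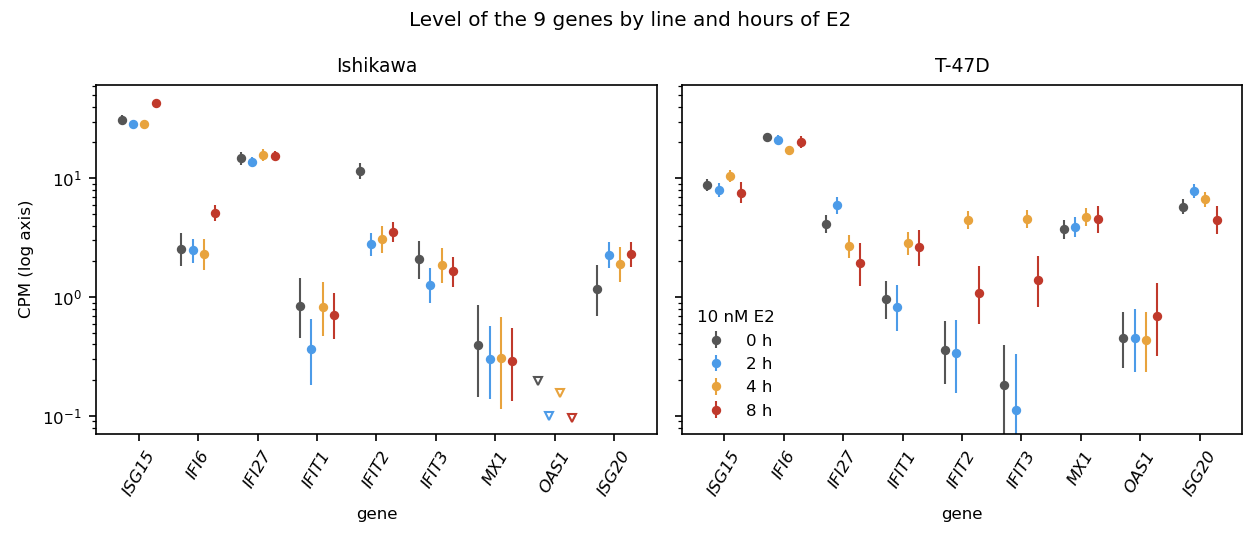
Level of each of the 9 genes in CPM on a log axis by line and hours of 10 nM E2. Points are pools of 1 culture each, bars are 95% exact Poisson intervals (counting error only), and open triangles mark the level of 3 UMIs for OAS1 in Ishikawa, which had none. ISG15 and IFI27 lead in Ishikawa and IFI6 leads in T-47D, and IFIT2 in Ishikawa is at 11.5 CPM at 0 h and at 2.78 to 3.55 CPM later.

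At 0 h ISG15, IFI27, IFIT2 and IFIT3 were higher in the Ishikawa library, and IFI6, MX1, OAS1 and ISG20 were higher in the T-47D library. The CPM ratio of Ishikawa over T-47D was 3.55 for ISG15 (95% exact conditional binomial interval 3.06 to 4.13), 3.53 for IFI27 (2.85 to 4.40), 31.8 for IFIT2 (17.7 to 62.7) and 11.6 for IFIT3 (4.77 to 33.8). The ratio of T-47D over Ishikawa was 8.72 for IFI6 (6.32 to 12.4), 9.53 for MX1 (4.26 to 26.5) and 4.90 for ISG20 (3.02 to 8.44). IFIT1 was at 0.881 of the T-47D level (0.424 to 1.72), an interval that holds equal levels. OAS1, with 49 UMIs over the 4 T-47D pools and 0 over the 4 Ishikawa pools, was at least 15.3-fold lower in Ishikawa, counting 3 UMIs over that line as its floor. Only ISG15 and IFI6 reached a mean of 10 CPM over both 0 h pools, and both passed 1.5-fold in opposite directions. Differences of that size were common between these lines, with 56.8% of the 8023 genes tested past 1.5-fold. The ratios of IFIT2 and IFIT3 rested on few cells, and without the top 1% of cells by summed UMIs of the 9 genes the log2 ratio of IFIT2, on the log2(CPM + 1) scale, was 0.26 in place of 3.20. For IFI27 the same step moved it from 1.61 to 3.33.

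After E2 none of the 9 genes passed 1.5-fold against 0 h of the same line with a mean of at least 10 CPM. Only ISG15 and IFI27 in Ishikawa and IFI6 in T-47D reached that minimum. Among all genes of at least 10 CPM the share past 1.5-fold in either direction was 1.45%, 1.26% and 1.28% at 2, 4 and 8 h in Ishikawa (7885 genes) and 1.64%, 1.69% and 3.06% in T-47D (7440 genes). Fold changes are log2 values of (CPM + 1) over (CPM at 0 h + 1), which understates those of low genes.

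ISG15 in Ishikawa was at 31.2, 28.8, 28.7 and 42.8 CPM at 0, 2, 4 and 8 h, with log2 fold changes of -0.11, -0.12 and 0.45. The 8 h level was above the other 3, and its plain ratio to 0 h was 1.37 (1.24 to 1.53). Of the 1328 UMIs at 8 h 17.8% came from 1 cell with 236. Without the top 1% of cells ISG15 was at 16.4, 17.8, 17.1 and 20.2 CPM, and the fold change at 8 h was 0.29. The reporter GFP took 4.67% of UMIs at 0 h and 3.17%, 3.95% and 4.10% later. In the 2830 cells with under 1% GFP the fold changes of ISG15 were -0.45, -0.82 and -0.03, so there it passed 1.5-fold lower at 4 h.

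IFI27 in Ishikawa was at 14.7, 13.7, 15.8 and 15.5 CPM, with overlapping intervals at all 4 times. IFI6 in T-47D was at 22.2, 21.1, 17.2 and 20.3 CPM, lowest at 4 h, where its ratio to 0 h was 0.776 (0.692 to 0.870). Its log2 fold change there was -0.35, and -0.18 without the top 1% of cells. ISG15 in T-47D was at 8.77, 7.99, 10.5 and 7.58 CPM. Its interval at 4 h, 9.32 to 11.7, overlapped that at 0 h, 7.79 to 9.84, and not those at 2 and 8 h. Of the 310 ISG15 UMIs at 4 h 36.8% came from 1 cell with 114. Without the top 1% of cells ISG15 in T-47D was at 5.73, 5.22, 5.88 and 5.25 CPM.

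IFIT2 had the largest fold changes of the 9 genes in Ishikawa, as the 3 IFIT genes had in T-47D at 4 h, and in several of these pools 1 cell held most of the UMIs. IFIT2 in Ishikawa was at 11.5, 2.78, 3.1 and 3.55 CPM, a log2 fold change of -1.73, -1.61 and -1.46, and 122 of its 176 UMIs at 0 h (69.3%) came from 1 cell. Without the top 1% of cells the fold changes were 0.24, 0.16 and 0.42. IFIT2 in T-47D was at 0.362, 0.339, 4.45 and 1.08 CPM, with a fold change of 2.00 at 4 h, where 122 of 132 UMIs (92.4%) came from 1 cell, and of 0.01 without the top 1% of cells. The same cell held 132 of 135 UMIs of IFIT3 (97.8%) and 69 of 84 of IFIT1 (82.1%) at 4 h. IFIT3 in T-47D was at 0.181, 0.113, 4.55 and 1.39 CPM and IFIT1 at 0.965, 0.829, 2.83 and 2.63 CPM, and at 8 h 33 of 34 IFIT1 UMIs were in 1 cell. In Ishikawa IFIT3 was at 2.09, 1.27, 1.86 and 1.65 CPM and IFIT1 at 0.849, 0.368, 0.826 and 0.710 CPM, and the intervals of each overlapped between times. There the top cell held 27.3% to 37.5% of IFIT1 UMIs and 15.8% to 55.6% of IFIT3 UMIs.

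The other members were low throughout. IFI6 in Ishikawa was at 2.55, 2.48, 2.32 and 5.10 CPM, highest at 8 h, and at 1.69 CPM there without the top 1% of cells. IFI27 in T-47D was at 4.16, 5.92, 2.70 and 1.93 CPM, with 47.8%, 54.1%, 48.8% and 44.0% of its UMIs in 1 cell. With the top 1% of cells left out it was at 0.488, 0.8, 0.854 and 0.862 CPM, and its log2 fold change was 0.32 at both 4 and 8 h in place of -0.48 and -0.81. MX1 was at 3.74, 3.92, 4.72 and 4.56 CPM in T-47D and at 0.290 to 0.392 CPM in Ishikawa, with overlapping intervals within each line. ISG20 was at 5.76, 7.88, 6.64 and 4.49 CPM in T-47D and at 1.18, 2.28, 1.91 and 2.29 CPM in Ishikawa. Its ratio to 0 h at 2 h was 1.37 in T-47D (1.12 to 1.67) and 1.94 in Ishikawa (1.14 to 3.46), from 18 UMIs at 0 h. ISG20 in Ishikawa was at 0.815 CPM at 8 h without the top 1% of cells, and its log2 fold change there was -0.27 in place of 0.60. OAS1 in T-47D was at 0.452, 0.452, 0.438 and 0.696 CPM.

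Most cells had few UMIs of these genes. In Ishikawa 54.8% of the 4613 cells and in T-47D 50.1% of the 4626 cells had no UMI of any of the 9, and a further 1712 and 2003 cells had 1 or 2. To compare shares at 1 depth each cell was thinned to 10000 UMIs, which left out 90 Ishikawa cells and no T-47D cell. ISG15 was then found in 14.5%, 15.7%, 14.5% and 15.4% of Ishikawa cells at 0, 2, 4 and 8 h (25.1% to 26.6% unthinned), and in 5.11%, 5.88%, 6.71% and 4.34% of T-47D cells (10.6% to 12.2% unthinned). The share of Ishikawa cells with ISG15 was therefore nearly flat over time, with an exact binomial interval of 12.1% to 17.2% at 0 h and 13.6% to 17.4% at 8 h. IFI27 was found in 12.5%, 11.3%, 13.1% and 13% of Ishikawa cells (19.6% to 23.5% unthinned) but in 0.852% to 1.41% of T-47D cells (1.44% to 2.17% unthinned). IFI6 had the opposite order, with 17.2%, 15.8%, 14.8% and 16.5% of T-47D cells (27.1% to 31.1% unthinned) and 1.71% to 2.22% of Ishikawa cells (3.81% to 3.92% unthinned). IFIT1, IFIT2 and IFIT3 were found in 0.208% to 1.53% of Ishikawa cells (0.478% to 2.05% unthinned) and in 0.0656% to 0.597% of T-47D cells (0.249% to 1.27% unthinned). MX1 was found in 2.35% to 3.54% of T-47D cells (5.79% to 7.08% unthinned) and 0.132% to 0.416% of Ishikawa cells (0.608% to 0.773% unthinned), where none of the 30 cells with a UMI had more than 1. ISG20 was found in 4.34% to 6.88% of T-47D cells (9.58% to 14.5% unthinned) and in 1.05% to 2.16% of Ishikawa cells (1.77% to 3.36% unthinned). OAS1 was found in 0.131% to 0.723% of T-47D cells (0.597% to 0.829% unthinned) and in 0 of 4613 Ishikawa cells. No cell type known to lack these genes was in the libraries, so the level of free RNA was not measured.

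The UMIs of ISG15 in both lines and of IFIT2 in Ishikawa were concentrated in few cells. In Ishikawa the 1% of thinned cells with the most ISG15 held 39.5% to 58.1% of its UMIs over the 4 times (39.1% to 55.2% unthinned), where counting noise alone at the thinned mean gives 7.2% to 8.51%. In T-47D it held 41.9% to 54.3% (39.8% to 49.7% unthinned), against 14.5% to 22.1% from counting noise. IFIT2 in Ishikawa had 96.6% to 100% of its thinned UMIs in the top 1% of cells, against 27.4% to 48.0%. The share that counting noise gives grows as the level falls, so the lines are not compared for genes whose levels differ. IFI27 stood at 16.8% to 24.5% in Ishikawa, against 12.9% to 14.2% from counting noise, and at 92.9% to 100% in T-47D, against 16.8% to 44.9%. IFI6 in T-47D stood at 15.2% to 21.7%, against 9.93% to 12.3%. In Ishikawa IFI6 was at 57.9%, 55.6% and 62.5% at 0, 2 and 4 h, against 43.3%, 42.9% and 57.2%, and at 80.7% at 8 h, against 20% from counting noise. ISG20 in T-47D was at 20.5% to 30.8%, against 17.3% to 25.4%.

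The coefficient of variation (CV) of UMIs across thinned cells also grows as the level falls. At 0, 2, 4 and 8 h it was 6.14, 4.67, 5.84 and 9.32 for ISG15 in Ishikawa, while T-47D gave 7.84, 11.5, 14.5 and 7.0. Counting noise alone gives 1.49 to 1.87 and 2.89 to 4.22. For IFI27 it was 2.90 to 3.57 in Ishikawa, against 2.45 to 2.71 from counting noise, and 11.6 to 24.2 in T-47D, against 3.42 to 6.47. For IFI6 it was 2.53 to 3.44 in T-47D, against 2.09 to 2.38, and 7.18 to 12.9 in Ishikawa, against 4.05 to 7.41. IFIT2 stood at 16.5 to 19.1 in Ishikawa, against 4.94 to 6.72. At 0 h noise was also measured as the residual of log2(CV + 1) from a smooth fit on mean level over all genes. The genes with the highest 20% of residuals within bins of like mean, the High noise class, were 20% of 12783 Ishikawa genes and 20.1% of 12066 T-47D genes by construction, and all 5 members past the minimum mean were in it in each line. The 9 genes were selected with their spread known, so this count and the ranks are descriptions and not tests. IFIT2 had the highest residual of all 12783 genes in Ishikawa, at 3.13 (CV 23.9), and ISG15 ranked 10 at 1.49. In that pool 1 cell held 122 of the 176 IFIT2 UMIs. IFI27 had the second highest of 12066 in T-47D, at 2.52 (CV 24.3), and ISG15 ranked 19 at 1.14. There 1 cell held 47.8% of the IFI27 UMIs. IFI6 ranked 103 in T-47D and 285 in Ishikawa, MX1 418 in T-47D, ISG20 645 in Ishikawa and 1790 in T-47D, and IFI27 1013 in Ishikawa.

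**Figure D2:**
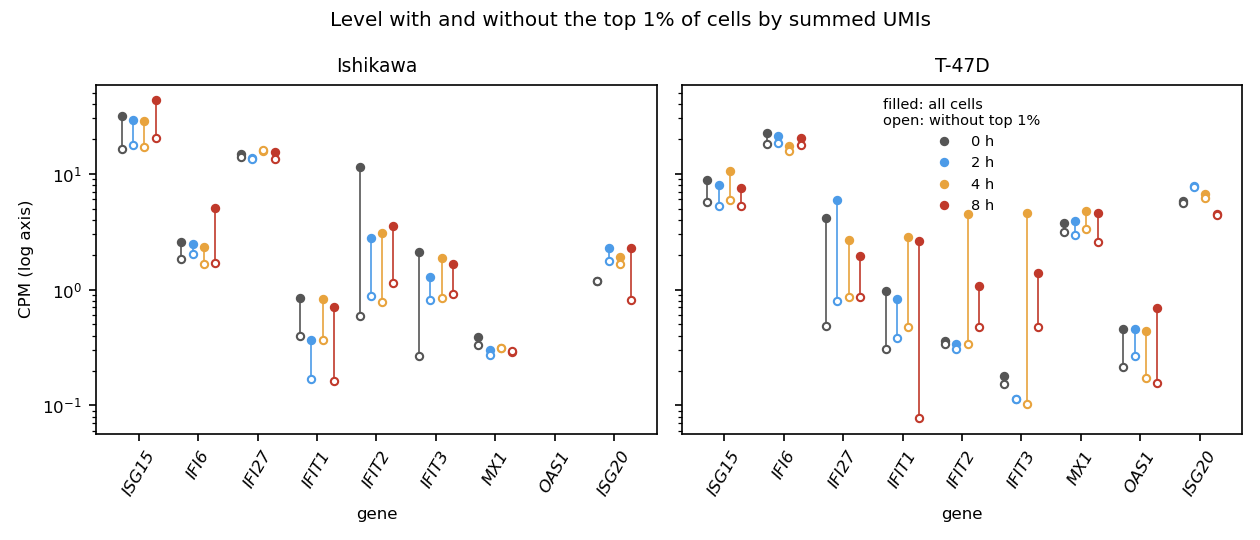
CPM of each gene on a log axis by line and hours of E2, over all cells (filled) and without the 1% of cells with the most summed UMIs of the 9 genes (open), joined by a line. IFIT2 in Ishikawa at 0 h is at 11.5 CPM with and 0.595 CPM without those cells, while IFI27 in Ishikawa and ISG20 in T-47D change little.

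A small number of cells carried much of the signal. The summed level of the 9 genes was 64.4, 51.9, 54.7 and 71.9 CPM at 0, 2, 4 and 8 h in Ishikawa and 46.6, 48.6, 54.0 and 44.6 CPM in T-47D. Without the top 1% of cells it was 35.0, 37.2, 38.7 and 38.5 CPM in Ishikawa and 33.9, 35.9, 33.1 and 31.8 CPM in T-47D, a narrower range. The cells left out were those with the highest sums, so a lower and narrower range is partly built in. Cells with at least 20 summed UMIs, a limit set after the values were seen, were 31 of 4613 in Ishikawa (0.672%, exact binomial interval 0.457% to 0.953%) and held 35.4% of the 5826 UMIs. In T-47D they were 11 of 4626 (0.238%, 0.119% to 0.425%) and held 26.4% of 5013. Near the limit, 6 Ishikawa cells had 15 to 19 UMIs and 6 had 20 to 24, against 0 and 1 in T-47D. They occurred at every time. At 0, 2, 4 and 8 h there were 6, 9, 4 and 12 such cells in Ishikawa, and T-47D had 4, 3, 3 and 1. The share was 0.773%, 0.608%, 0.448% and 0.819% in Ishikawa, with overlapping intervals, and 0.181% to 0.262% in T-47D.

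These cells were like the rest in total UMIs, with a median of 21226 UMIs against 20320 for other Ishikawa cells, and of 24313 against 21094 for T-47D. Their median mitochondrial share was 4.36%, beside 4.08% in other Ishikawa cells, and in T-47D 11.9% beside 10.2%. Of the 31 Ishikawa cells 13 (41.9%) had at least 1% GFP, against 38.6% of the other cells. Among the 480 Ishikawa cells with at least 10% GFP, 6 were above the limit, against 18 of the 2830 under 1% and 7 of the 1303 between. The cell with 122 IFIT2 UMIs had 25.2% GFP. IFIT2 stood at 15.6 CPM in the class of at least 10% GFP against 2.68 CPM under 1%. That 1 cell held 122 of the 150 IFIT2 UMIs of its class, so the higher level there rests on it. Of the 3139 Ishikawa cells with a UMI of the proliferation genes TOP2A or MKI67 0.733% were above the limit, and of the 1474 without 0.543%. The part of GFP and of proliferation in these values was not tested.

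In Ishikawa these cells fell into combinations with different genes. ISG15 led most of them, with at least 20 UMIs in 23 of 31. In 12 cells IFIT1, IFIT2 and IFIT3 together had at least 5 UMIs. The top cell, at 8 h, had 236 ISG15, 13 IFIT2, 14 IFIT3, 7 IFIT1 and 27 ISG20 UMIs, and none of IFI6, IFI27 or MX1. The next, also at 8 h, had 116 ISG15, 34 IFIT2 and 16 ISG20 UMIs. A 4 h cell had 81 ISG15, 38 IFIT2 and 20 IFIT3 UMIs. A 0 h cell had 122 IFIT2 and 17 IFIT3 UMIs but none of ISG15 or IFIT1. A different set of 5 cells had at least 5 UMIs of IFI6 and IFI27 together, and 1 of these also had 5 IFIT UMIs. They were all 8 h cells, with 12 and 2, 27 and 15, 20 and 27, 10 and 10, and 28 and 7 UMIs of IFI6 and IFI27. The other cells had ISG15 and little else, such as an 8 h cell with 57 ISG15 UMIs and 2 of IFI27. MX1 had 2 UMIs in all 31 cells and OAS1 none.

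In T-47D all 11 cells had at least 5 UMIs of IFI6 and IFI27 together, and 4 of them also had 5 IFIT UMIs. The top cell, at 4 h, had 114 ISG15, 69 IFIT1, 122 IFIT2, 132 IFIT3, 32 MX1 and 6 OAS1 UMIs, which made 2.35% of its 21020 UMIs, but only 8 IFI6 and 4 IFI27. It also had 262 UMIs of OASL, a relative of OAS1. The next, at 2 h, had 85 IFI27, 53 ISG15, 25 IFI6 and 13 MX1 UMIs and none of IFIT2 or IFIT3. An 8 h cell had 33 IFIT1, 28 ISG15, 25 MX1 and 13 IFI6 UMIs. MX1 was found in 10 of the 11 cells, unlike in Ishikawa. BST2, which encodes the virion tether tetherin, had 15 to 61 UMIs in each of the 11 cells. It was also found in 4580 of the 4615 other T-47D cells, at 344 CPM against 1216 CPM in the 11.

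**Figure D3:**
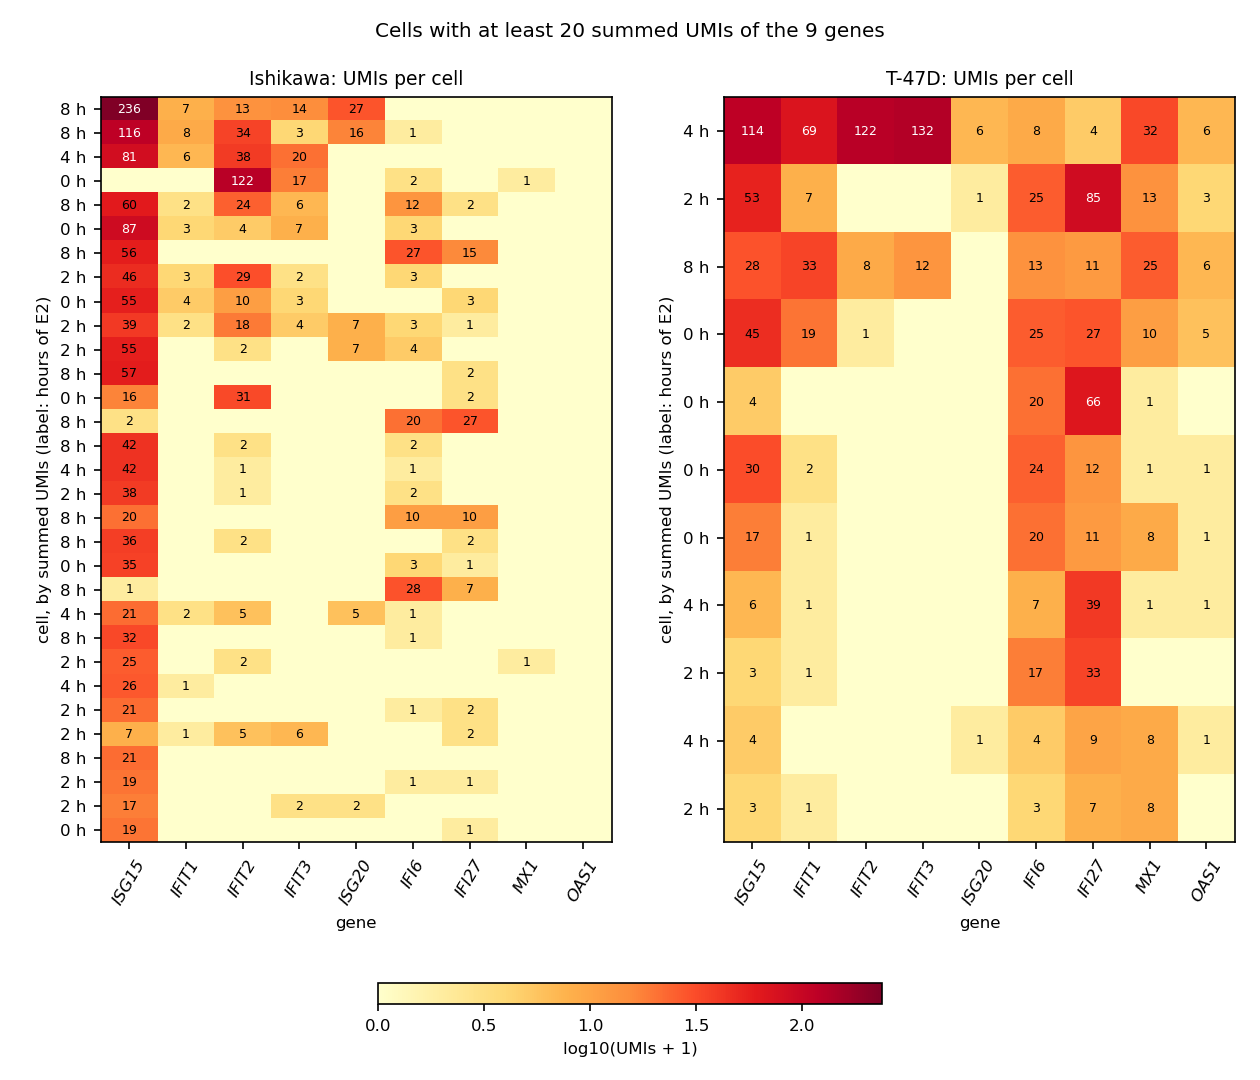
UMIs of each gene (columns) in every cell with at least 20 summed UMIs (rows, labelled by hours of E2 and ordered by their sum), 31 Ishikawa cells and 11 T-47D cells, with colour on a log10(UMIs + 1) scale and blank cells at 0. Ishikawa rows are led by ISG15 with or without the IFIT genes, with 2 rows at 0 h led by IFIT2 and 2 at 8 h by IFI6 or IFI27, and the highest gene of a T-47D row is IFI27, ISG15, IFI6, MX1, IFIT1 or IFIT3.

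Other genes differed in the same cells. The genes named here were chosen after their values were seen, as those with at least 20 UMIs in these cells, a UMI in at least 4 of them and the highest ratio to the remaining cells. In Ishikawa they were DDX60, a helicase, at 39.0 CPM against 0.337 CPM in the other cells, IFI44 at 28.9 against 0.970 CPM, HERC5, the ligase for ISG15, at 43.3 against 3.96 CPM, and IFITM3, which blocks virus entry, at 415 against 68.4 CPM. In T-47D they were IFITM1 at 82.3 against 0.598 CPM, HERC5 at 138 against 1.58 CPM, RARRES3 at 348 against 9.44 CPM and IFITM3 at 191 against 7.01 CPM. Next by ratio in T-47D was S100P at 165 against 8.31 CPM, with a UMI in 4 of the 11 cells. The RNA sensors IFIH1 and DDX58 followed, at 109 and 131 CPM in the T-47D cells against 6.61 and 11.7 CPM. In T-47D the top 4 h cell held 32 of the 37 HERC5 UMIs, 21 of 29 of IFIH1 and 16 of 35 of DDX58. Outside that rule, the chemokine gene CCL5 had 40 UMIs in 3 of the 31 Ishikawa cells and 13 UMIs in the 4582 others. PMAIP1, a pro-apoptotic gene, was at 130 CPM in the Ishikawa cells against 26.5 CPM. The antigen presentation gene B2M was at 691 against 258 CPM in Ishikawa. The keratin gene KRT17 was at 2054 against 393 CPM there.

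Correlations across cells were weak for most pairs. Spearman's rho was taken across thinned cells within each line and time point, over 28 pairs in Ishikawa, where OAS1 had no UMI, and 36 pairs in T-47D. At 0, 2, 4 and 8 h its median over pairs was 0.03, 0.04, 0.00 and 0.07 for Ishikawa, and T-47D gave 0.00, 0.00, 0.05 and 0.12. Over all pairs of the genes in the same range of level it was 0.00 to -0.01. The pairs of a line share cells and depth, and the 553 T-47D cells at 8 h are the fewest. Without the top 1% of cells all 8 medians of the 9 genes lay between 0.00 and -0.01. Those cells were chosen by the summed UMIs of the same 9 genes, so a fall is partly built in.

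The pairs with the highest rho were among the IFIT genes in Ishikawa and around IFIT1 and OAS1 in T-47D. As means over the 4 times, with 4523 cells in all, rho was 0.31 for IFIT1 and IFIT3, 0.25 for IFIT1 and IFIT2 and 0.21 for IFIT2 and IFIT3 in Ishikawa. There 18 thinned cells had IFIT1, 48 had IFIT3 and 8 had both. ISG15 had a rho of 0.11 with IFIT2, with 21 of the 45 IFIT2 cells also positive for ISG15, and of 0.05 with IFI27. In T-47D, with 4626 cells, rho was 0.28 for IFIT1 and OAS1, 0.19 for IFIT1 and each of IFI27, IFIT2 and IFIT3, 0.18 for IFI27 and OAS1 and 0.16 for MX1 and each of IFIT1 and OAS1. These values rest on very few cells, with 23 thinned cells positive for IFIT1, 14 for OAS1 and 4 for both, 1 at each time. IFIT1 shared 2 cells with each of IFIT2 and IFIT3, none at 0 and 2 h, where rho was 0.00, and 1 at 8 h, where IFIT1 was in 1 cell and rho was 0.58. ISG15 and IFI27 had a rho of 0.11, and 16 of the 52 IFI27 cells had ISG15. IFI6, present in many T-47D cells, had rho of 0.03 with ISG15 and 0.08 with IFI27, and ISG20 was within 0.03 of 0 with all others. IFI6 and IFI27, members of one family, had a rho of 0.01 in Ishikawa.

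**Figure D4:**
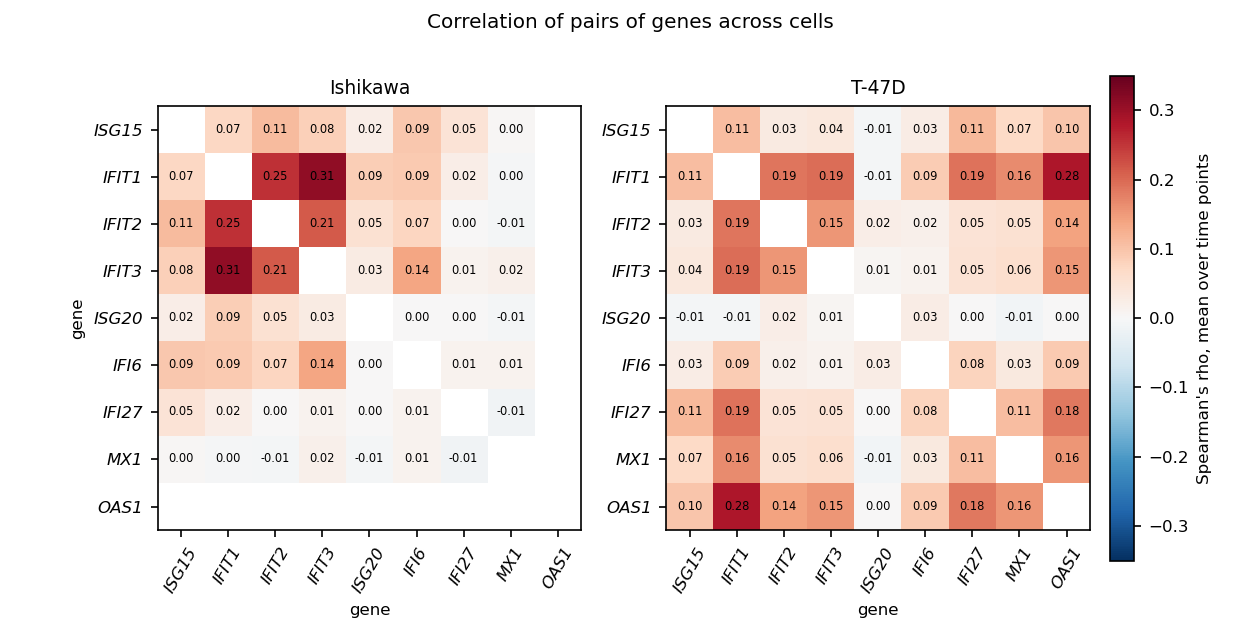
Spearman's rho for each pair of genes across thinned cells, as the mean over 0, 2, 4 and 8 h, in Ishikawa (4523 cells) and T-47D (4626 cells), with red for positive and blue for negative values and blank for OAS1 in Ishikawa. The highest values are 0.31 for IFIT1 and IFIT3 in Ishikawa and 0.28 for IFIT1 and OAS1 in T-47D, and ISG20 is near 0 with all genes in T-47D.

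Among genes of at least 10 CPM, those whose counts across cells were most like the summed UMIs of the 9 were on none of the interferon lists used here. Of 52 other interferon-stimulated genes only 12 in Ishikawa and 15 in T-47D reached that level, so most could not be ranked. Among 7883 Ishikawa genes of at least 10 CPM the 10 highest mean rho over the 4 times were 0.13 for CALD1, 0.12 for MYL9 and TAGLN, 0.11 for MYL6, CSRP1, KRT17 and S100A6, and 0.10 for PRSS23, HSPB1 and COTL1, with a median over all genes of 0.00. CALD1, MYL9, TAGLN and MYL6 encode actin-binding or myosin proteins. Their rho with IFI27 was 0.13, 0.12, 0.13 and 0.12 and with ISG15 0.09, 0.08, 0.08 and 0.07, whereas with IFIT2 it was -0.01, -0.03, -0.03 and -0.01. Among 7439 T-47D genes they were 0.10 for EIF1, 0.09 for APOE, 0.08 for KRT19, and 0.07 for RPL36AL, KRT23, LGALS3, AZGP1, AC008703.1, COMTD1 and XBP1. The rho of EIF1 with ISG20 was 0.09 and that of APOE with IFI6 0.09.

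A list of 52 other interferon-stimulated genes was measured for comparison, of which 47 had a UMI in Ishikawa and 49 in T-47D, and 12 and 15 reached a mean of 10 CPM. At 0 h the highest were EIF2AK2, which encodes the RNA-activated kinase PKR, at 71.9 CPM in Ishikawa and BST2 at 370 CPM in T-47D. BST2 was at 23.5 CPM in Ishikawa. Of the 12 in Ishikawa LY6E was past 1.5-fold higher at 8 h, at 48.0 against 28.4 CPM (log2 0.74). No other of the 12 and 15 genes was past 1.5-fold. LY6E in T-47D also rose but stayed under that limit, at 105, 126, 135 and 149 CPM at 0, 2, 4 and 8 h (log2 0.51 at 8 h). Below the minimum OASL in T-47D was at 9.07 CPM at 4 h against 0.392 CPM, with 262 of its 269 UMIs in the top cell, and HERC5 at 3.27 and 3.17 CPM at 4 and 8 h against 0.814 CPM. The median log2 fold change of the list at 2, 4 and 8 h was 0.09, -0.02 and 0.06 in Ishikawa, beside -0.01, -0.01 and 0.00 over all genes tested. For T-47D the list gave -0.04, -0.05 and 0.05, beside 0.01, -0.01 and 0.01. OAS2, PARP9, DTX3L, NMI and RTP4 had no UMI in Ishikawa, and IFI44L, CXCL10 and CXCL11 none in T-47D.

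The receptors and signalling genes were present at low to moderate levels. At 0 h IFNAR1 was at 51.3 CPM in Ishikawa and 77.8 CPM in T-47D and IFNAR2, the other chain of the type I receptor, at 5.88 and 1.06 CPM. IFNLR1 of the type III receptor was at 4.77 and 1.09 CPM. STAT2 was at 9.87 and 20.5 CPM and IRF9 at 0.98 and 0.271 CPM. In Ishikawa IRF9 was the lowest of the 18 genes of this list and PTPN2, a phosphatase that acts on JAK proteins, the highest at 60.9 CPM. In T-47D SOCS3 was the lowest at 0.211 CPM and STAT3 the highest at 98.2 CPM. JAK1 in T-47D was past 1.5-fold higher at 4 and 8 h, at 163 and 172 CPM against 95.4 CPM (log2 0.77 and 0.84). In each line 9 of the 18 genes reached the minimum of 10 CPM, and no other of these was past 1.5-fold. Below it IFNAR2 in T-47D was at 2.63 CPM at 8 h against 1.06 CPM (ratio interval 1.51 to 4.12), and SOCS1 at 0.232 against 0.874 CPM from 3 and 29 UMIs.

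Of the 16 sensors and inducing factors 5 in Ishikawa and 6 in T-47D reached 10 CPM, and none of these was past 1.5-fold. Below that minimum IRF2, a repressor of interferon genes, was at 6.01, 3.55, 2.63 and 3.55 CPM in Ishikawa at the 4 times (ratio interval 0.305 to 0.624 at 4 h). IRF3 was the highest, at 29.7 and 28.5 CPM at 0 h, with TBK1 at 21.2 and 26.9 CPM and MAVS at 19.7 and 20 CPM. IFI16 had no UMI at 0 h in Ishikawa and AIM2 none at 0 h in T-47D. The DNA sensor gene CGAS was at 0.653 and 0.0301 CPM, TMEM173, which encodes STING, at 2.68 and 0.934 CPM, and TLR3 had no UMI in Ishikawa. Of the 17 antigen presentation genes 4 in Ishikawa and 8 in T-47D reached 10 CPM, and none of these was past 1.5-fold. B2M was the highest at 262 and 455 CPM. HLA-B was at 260 CPM in T-47D, and the immunoproteasome genes PSMB8 and PSMB9 and the class II gene HLA-DRA had no UMI in Ishikawa.

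The interferon genes were at or near 0. Of 21 such genes 3 had a UMI in the kept Ishikawa cells, IFNE with 5, IFNA5 with 2 and IFNK with 2, and 1 in the kept T-47D cells, IFNL1 with 1. IFNB1 had no UMI in any barcode of either line. None of the 31 Ishikawa and 11 T-47D cells with at least 20 summed UMIs of the 9 genes had a UMI of an interferon gene.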

How the data were processed

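UMI counts per gene and cell barcode are the deposited values, made by the authors with Cell Ranger 3.1.0 on hg38. The deposited calls give the time point of each barcode or a doublet. From barcodes with 1 time point, those inside the study's stated limits were taken. In Ishikawa a cell had to hold between 8500 and 35000 UMIs from between 2700 and 6000 genes, with a mitochondrial share below 7%. In T-47D the bounds were 7500 and 40000 UMIs, 1500 and 6000 genes and 20%. Doublets and uncalled barcodes entered no comparison, no doublet caller was run, and pairs of cells from 1 time point were not removed. The matrices shared 80 barcodes, 5 among kept cells. A table of tag sequences was not used.

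The UMIs of all cells of a line and time point were added up and expressed per 1000000 (CPM). With 1 culture per pool there is no test. Intervals are 95% exact Poisson (CPM), Clopper-Pearson (shares) and conditional binomial (ratios). Shares, CV and Spearman's rho used cells thinned to 10000 UMIs, with a fixed seed. Noise used a generalised additive model (mgcv 1.9.3) of UMIs per 10000 on genes with a log-normalised mean over 0.01, in 10 bins. Python 3.11.15, scipy 1.17.1, R 4.3.3 and edgeR 4.0.16 (TMM factors only) were used, and the scripts were tested on simulated data. The 9 genes and all lists were chosen with earlier results of these data known. Besides the 9, the genes named were the 10 per line most correlated with their sum, list members past 1.5-fold, the highest and lowest of each list at 0 h, and GREB1, GFP, TOP2A and MKI67. Others were chosen after their values were seen. Alternatives were TMM and median-of-ratios scaling, every called barcode, an upper UMI limit of 1.5 times the median, leaving out the top 1% of cells, cells under 1% GFP, reporters out of the totals, means over cells, other pseudocounts, folds and minimums, no thinning and Pearson's r. Promoter windows and positions are from RefSeq (GRCh38.p14). Some genes of the lists are not reported here.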

Additional observations from a re-analysis of the deposited data

Results flagged for a closer look

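IFIT2 had fold changes of opposite sign in the lines at 4 h, -1.61 on the log2(CPM + 1) scale in Ishikawa and 2.00 in T-47D, and at 8 h, -1.46 in Ishikawa and 0.61 in T-47D. With 1 culture per line and time point the difference was not tested. In the Ishikawa 0 h pool 69.3% of the UMIs, and in the T-47D 4 h pool 92.4%, were in 1 cell. Without the top 1% of cells the values at 4 h were 0.16 and 0.01.

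Barcodes outside the kept cells also had at least 20 summed UMIs of the 9 genes. In Ishikawa these were 18 of 4464 barcodes called to 1 time point but outside the limits (0.403%), 9 of 1906 called doublets (0.472%) and 20 of 4002 with no call (0.5%). In T-47D they were 6 of 12120 barcodes with no call (0.0495%), which had a median of 7024 UMIs, and 3 of 1442 called doublets (0.208%).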

How the results depend on the processing

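No paired analysis was possible because each line and time point is 1 culture and no test was made. The count of members past 1.5-fold was 0 at every time under both other scalings, with every called barcode, the lower UMI limit or means over cells, without the top 1% of cells, with a pseudocount of 5 CPM, with a 2-fold rule and, in Ishikawa, with reporters out of the totals. With no minimum level it was 2 at 2 h (IFIT2 and ISG20), 1 at 4 h (IFIT2) and 3 at 8 h (IFI6, IFIT2 and ISG20) in Ishikawa. In T-47D it was then 3 at 4 h (IFIT1, IFIT2 and IFIT3) and 4 at 8 h (those and IFI27). A lower fold limit gave 1 in Ishikawa at 8 h (ISG15) and 1 in T-47D at 4 h (IFI6), and cells under 1% GFP gave 1 in Ishikawa at 4 h (ISG15). No share over all genes is given for these other rules, so the counts have no background beside them. Genes of few UMIs enter with no minimum, such as ISG20 in Ishikawa with 18 UMIs at 0 h and IFIT3 in T-47D with 6. TMM scaling moved the median log2 fold change of all T-47D genes at 8 h to -0.12. Among the members' fold changes recomputed, 361 moved by less than their counting error and 37 by more, 16 of these without the top 1% of cells.

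The median rho without thinning was 0.0402, 0.0577 and 0.0523 at 0, 4 and 8 h for Ishikawa, and 0.0324, 0.0191 and 0.0809 at 0, 2 and 8 h for T-47D. Pearson's r of log values gave 0.0919, 0.194, 0.0384 and 0.151 at the 4 times for Ishikawa, and 0.0902, 0.0680, 0.311 and 0.524 for T-47D. Without the top 1% of cells the median was -0.00483, -0.00566 and -0.00446 at 0, 2 and 8 h for Ishikawa, and -0.00705 and -0.00582 at 4 and 8 h for T-47D. In Ishikawa cells under 1% GFP it was 0.0760, 0.0164 and 0.0474 at 0, 2 and 8 h, and with the lower UMI limit 0.0287 at 8 h. For ISG15 and IFI27 alone, the Ishikawa members of at least 10 CPM, it was 0.0507, -0.00182, 0.103 and 0.0419. The causes were not tested. A level below 1 CPM rests on few UMIs, and depth limits what can be said of it.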

Other observations

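IFNL1, a type III interferon gene, had UMIs in 3 barcodes with no call, and each of these had many UMIs of the 9 genes. An Ishikawa barcode with 2 IFNL1 UMIs had 505 UMIs of the 9 genes among 28740, the most of any Ishikawa barcode, with 187 IFIT1, 141 IFIT2, 114 ISG15 and 42 IFIT3. A further Ishikawa barcode with 1 IFNL1 UMI had 46 IFIT2 and 35 ISG15 UMIs, and a T-47D barcode with 1 had 16 IFIT2, 15 IFIT1 and 13 ISG15 UMIs among 8636, of which 23.6% were mitochondrial. The only kept cell with an IFNL1 UMI, in T-47D, had none of the 9 genes. These barcodes have no time point, and the values enter no comparison.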
